A study of Mus musculus with 4 samples.

Results

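Telomere maintenance genes are described here in mouse embryonic stem cells that lack the Tet dioxygenases. The 10 genes, chosen by symbol, were Terf1, Terf2, Tinf2, Pot1a, Tert, Dkc1, Rif1, Rtel1, Atrx and Daxx. All 10 were found, each as a single row, among 22492 gene symbols of the expression data. TetTKO cells carried CRISPR mutations of Tet1, Tet2 and Tet3, and per the labels no 5-hydroxymethylcytosine was detected in them by mass spectrometry. WT cells were the unmodified parental line, E14Tg2a, a male embryonic stem cell line. The mutant line came from clones picked after transient transfection with a mixture of guide RNA vectors and puromycin selection in 2i medium. The labels do not say how many clones stood behind the libraries. Both lines were then kept for at least 17 days on gelatin in serum medium (15% serum, with LIF at 1000 units/ml). Each genotype had 1 RNA-seq library and 1 whole-genome bisulfite library (WGBS), so nothing reported here could be checked between replicates and no difference was tested. A difference is called higher or lower by its size alone.

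Telomeres are the repeat ends of chromosomes. They are coated by shelterin, a protein complex that hides the end from DNA repair, and are lengthened by telomerase, a reverse transcriptase that carries its own RNA template. Helicases and replication factors take the replication fork through the repeats, and Atrx with Daxx places the histone variant H3.3 on them. Pluripotent cells have telomerase activity, and mouse embryonic stem cells can also lengthen telomeres by recombination. Tet enzymes oxidise 5-methylcytosine, and bisulfite sequencing reads 5-methylcytosine and 5-hydroxymethylcytosine alike.

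Several facts of the libraries bear on these genes. Tet1 mRNA had 4.36 FPKM (fragments scaled to transcript length and sequencing depth) in TetTKO and 15.06 in WT, and Tet2 had 4.13 and 14.86, while Tet3 was under 1 FPKM in both. The 6 embryonic stem cell markers examined, Pou5f1 and Sox2 among them, had 26.4 to 3344 FPKM in TetTKO and 49.3 to 3211 in WT. Nanog (71.02 FPKM in TetTKO and 116.29 in WT), Esrrb (26.43 and 49.32) and Zfp42 (513.35 and 698.32) were lower in TetTKO. The 7 fibroblast markers summed to 2.37 FPKM in TetTKO and 1.58 in WT, and only Thy1 passed 1 FPKM. The 5 primitive endoderm markers summed to 6.22 FPKM in TetTKO and 1.95 in WT. In TetTKO 4 of 5 were above 1 FPKM, while the highest in WT had 0.72. The 5 trophoblast markers summed to 60.5 and 34.1 FPKM, mostly Krt8 and Krt18, with Elf5 at 0.02 and 0. The 4 neural markers summed to 34.6 and 64.7 FPKM, mostly Tubb3. The part of other cell types in the results was not tested, and in bulk RNA fewer cells of a type and less RNA per cell cannot be told apart. Chromosome 6, which carries Pot1a, stood apart. Its coverage per CpG was 0.982 times that of the median autosome in TetTKO and 1.34 times in WT, where the other autosomes ran from 0.986 to 1.17 times. The median log2 difference of its 310 genes that passed 5 FPKM in each library was -0.52, and 91.0% of them were lower in TetTKO. Methylation was lower in TetTKO genome-wide, at 65.0% against 69.5% in WT over the autosomes and X.

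The start sites of 6 members could be placed on the methylation data by sequence. The promoter sequence of RefSeq (GRCm38.p6) was read for its CpG spacing, and that spacing was searched in the listed CpG positions (mm9) around the gene. For Tert, Terf2, Tinf2, Pot1a, Rtel1 and Daxx a single place matched, at 0 to 90 bp from 1 end of the gene interval. Daxx matched with 33 of 33 CpGs, Terf2 with 18 of 18, Tert with 15 of 15, Rtel1 with 17 of 18, Pot1a with 18 of 22 and Tinf2 with 13 of 24. For Atrx and Dkc1 fewer than 5 CpGs matched, and Terf1 and Rif1 were not matched. Promoters of Tert, Terf2 and Daxx are printed as the catalytic telomerase gene, the promoter with the most methylated reads in TetTKO and the one richest in CpGs. The 250 bases before the start site run 5′ to 3′, and capitals mark the CpGs with reads in both libraries. A lone capital C at the end of a line is a CpG that straddles the start site.
Tert, GRCm38.p6 chr13:73626661-73626910, plus strand: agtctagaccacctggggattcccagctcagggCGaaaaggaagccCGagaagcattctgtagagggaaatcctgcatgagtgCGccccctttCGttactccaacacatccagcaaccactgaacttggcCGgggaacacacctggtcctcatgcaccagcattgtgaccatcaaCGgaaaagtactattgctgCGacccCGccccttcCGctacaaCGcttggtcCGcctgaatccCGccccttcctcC
Terf2, GRCm38.p6 chr8:107096546-107096795, minus strand: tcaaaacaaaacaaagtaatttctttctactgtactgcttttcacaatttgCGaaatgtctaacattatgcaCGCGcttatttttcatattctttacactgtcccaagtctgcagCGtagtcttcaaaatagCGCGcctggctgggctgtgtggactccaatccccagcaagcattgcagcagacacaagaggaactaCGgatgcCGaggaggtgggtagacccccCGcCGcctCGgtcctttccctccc
Daxx, GRCm38.p6 chr17:33909195-33909444, plus strand: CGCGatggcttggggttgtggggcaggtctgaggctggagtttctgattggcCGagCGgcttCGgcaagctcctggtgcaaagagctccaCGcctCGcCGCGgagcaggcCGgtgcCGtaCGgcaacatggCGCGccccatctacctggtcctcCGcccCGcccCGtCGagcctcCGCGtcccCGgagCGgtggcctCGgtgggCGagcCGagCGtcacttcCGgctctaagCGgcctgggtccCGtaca
These 250 bases hold 12 CpGs in Tert, 11 in Terf2 and 29 in Daxx, against a median of 6 over the 32851 mouse promoter sequences. The letters GGGCGG (the GC box, bound by Sp1-type factors), on either strand, occur 2 times in Tert, 2 times in Daxx, where the copies share a base, and not in Terf2, and 32.7% of all promoter sequences of this length hold them. The letters CACGTG (an E box, bound by Myc-type factors) are in none of the 6 matched promoters, against 6.02% of all.

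The promoters themselves were almost free of methylation in both genotypes. Over the Tert promoter, including the first bases after the start site, 2 of 212 reads were methylated in TetTKO (0.943%, exact 95% binomial interval 0.114 to 3.37) and 0 of 144 in WT, which allows a share of up to 2.08% (3 reads of the total, as for each count of 0 below). Terf2 had 4 methylated of 234 reads in TetTKO (1.71%, 0.468 to 4.32) and 0 of 199 in WT, which allows up to 1.51%. Of the 4 methylated reads in TetTKO, 3 were among the 13 reads of a single CpG at position -135 from the start. Daxx had 0 of 422 reads in TetTKO and 0 of 320 in WT, which allow up to 0.711% and 0.938%. Tinf2 had 0 of 126 and 0 of 107, Pot1a 1 of 140 and 0 of 159, and Rtel1 1 of 225 and 1 of 119. The read intervals of both genotypes overlapped for all 6, so no difference was detectable at this depth. All intervals here cover counting error only, and a read that spans several CpGs enters once per CpG, so they are too narrow.

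The 4 shelterin genes all differed by less than 1.5-fold. As large a difference as that of Terf1, the largest upward, was found in 29.7% of all genes, and for Pot1a, the largest downward, in 22.2%. Terf1 encodes TRF1, which binds double-stranded telomere repeats, and had 32.08 FPKM in TetTKO and 25.20 in WT, 27.3% higher. Its log2 difference, taken as log2((TetTKO + 1)/(WT + 1)), was 0.34. Terf2, for TRF2, which folds the telomere end into a protective loop, had 6.26 FPKM in TetTKO and 7.23 in WT, a log2 difference of -0.18. Tinf2, for TIN2, which bridges TRF1 and TRF2, had 30.65 and 30.95 FPKM. Pot1a, for a protein that caps the single-stranded overhang, had 19.21 FPKM in TetTKO and 25.83 in WT, a log2 difference of -0.41. This was the largest downward difference of the 10 members, yet Pot1a stood 0.11 above the median of its own chromosome, with 66.1% of the chromosome 6 genes at or below it. A lower Pot1a and the lower level of chromosome 6 as a whole cannot be told apart.

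Tert and Dkc1, the 2 telomerase genes among the 10, were level between the genotypes. Tert, the reverse transcriptase and the least abundant member in both libraries, had 2.02 FPKM in TetTKO and 2.01 in WT. Dkc1, for dyskerin, which binds and stabilises the telomerase RNA and also modifies ribosomal RNA, had 131.34 and 131.38 FPKM. Among the 10984 genes that reached 1 FPKM in TetTKO or WT, 98.8% differed by at least as much as Tert and 99.8% by at least as much as Dkc1. The interval of Dkc1 overlaps that of Mpp1 at its higher-coordinate end, and whether reads were counted by strand is not given in the sources used here.

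Of the replication-linked members Rif1 and Rtel1, Rif1 was higher in TetTKO. Rif1, a replication timing factor that limits telomere length in yeast, had 141.84 FPKM in TetTKO and 104.17 in WT, a log2 difference of 0.44. It was the most abundant member in TetTKO and next to Dkc1 in WT. Rtel1, a helicase that opens telomere loops, had 23.72 and 26.84 FPKM, a log2 difference of -0.17.

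Atrx showed the largest RNA difference of the 10. Atrx, the chromatin remodeller whose loss accompanies telomerase-free telomere lengthening in human tumours, had 27.93 FPKM in TetTKO and 18.17 in WT, 53.7% higher, with a log2 difference of 0.59. Its partner Daxx, the chaperone that hands over H3.3, had 32.95 and 33.85 FPKM, a log2 difference of -0.04. Among the 3031 genes whose mean level was within 2-fold of that of Atrx, 8.55% differed by at least as much in either direction and 3.37% were at least as high. For Rif1 the same shares were 13.7% and 3.42% of 994 genes.

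As a set, the 10 genes had a median RNA difference close to that of all genes. On the log2(FPKM + 1) scale 1 member, Atrx, was at least 1.5-fold higher, against 6.53% of all genes with at least 1 FPKM, and 0 were at least 1.5-fold lower, against 5.23%. None reached 2-fold, which 1.77% of all genes did upward and 0.847% downward. With a pseudocount of 5 FPKM no member was 1.5-fold higher, against 1.87% of all genes. The median log2 difference of the members was -0.01, and that of all genes was -0.01. The small differences of Tinf2, Dkc1 and Daxx turned positive under upper quartile scaling, which put Daxx at 0.007. In TetTKO the order of levels, which FPKM allows since it is per length, was Rif1, Dkc1, Daxx, Terf1, Tinf2, Atrx, Rtel1, Pot1a, Terf2 and Tert. In WT it was Dkc1, Rif1, Daxx, Tinf2, Rtel1, Pot1a, Terf1, Atrx, Terf2 and Tert. With 1 library each there is no spread, so neighbours in these orders, such as the 6 genes between 18.17 and 33.85 FPKM below Rif1 and above Terf2, could not be set apart.

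**Figure D1:**
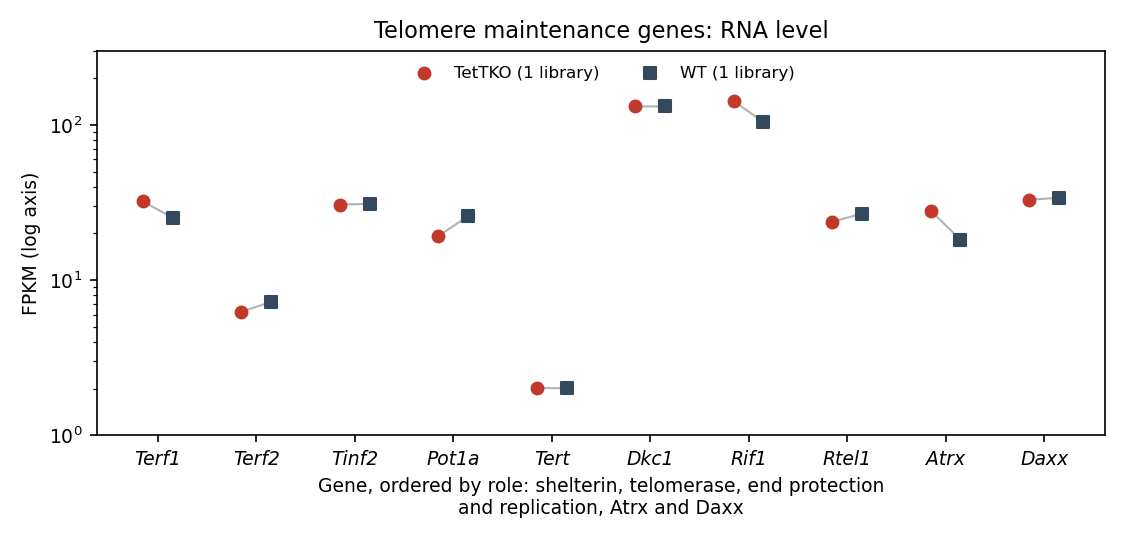
RNA level of the 10 telomere maintenance genes in FPKM on a log axis, with TetTKO as circles and WT as squares, 1 library each and a line joining the values of a gene. Rif1 and Atrx lie higher in TetTKO, at 141.84 against 104.17 and 27.93 against 18.17 FPKM, while Tert lies at about 2 FPKM in both.

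On the log2(FPKM + 1) scale 2 of 52 other telomere genes were at least 1.5-fold lower. Both, Shq1 and Ruvbl1, lay on chromosome 6. With a pseudocount of 0.1 FPKM 3 were at least 1.5-fold lower, against 7.63% of all genes. The plain ratio of Pif1, on chromosome 9, was 0.649. All 52 had at least 1 FPKM in either library, 1 was at least 1.5-fold higher, against 6.53% of all genes, and 2 at least 1.5-fold lower, against 5.23%. Their median log2 difference was 0.0007. By any amount, 48.9% of all genes were higher in TetTKO and 51.0% lower, and the direction counts of the small groups that follow stand beside these shares. Of 13 genes of the telomerase particle, 6 were higher and 7 lower by any amount. Shq1, which assembles dyskerin, had 22.44 FPKM in TetTKO and 45.31 in WT, a log2 difference of -0.98. Ruvbl1, an ATPase of the same assembly path, had 140.54 and 250.37 FPKM, a log2 difference of -0.83. Both are on chromosome 6 and below the lower quartile of that chromosome's genes (-0.69), with 6.13% of its genes at or below Shq1 and 13.5% at or below Ruvbl1, and without that chromosome 0 of 50 genes were 1.5-fold lower. Wrap53, which brings telomerase to Cajal bodies, had the largest upward difference of this group, with 19.78 FPKM in TetTKO and 13.34 in WT, a log2 difference of 0.54. The telomerase RNA Terc, the template of the repeat, had 400.54 and 332.94 FPKM, a log2 difference of 0.27.

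The other shelterin genes Terf2ip, Acd and Pot1b lay between 3.06 and 8.74 FPKM. Terf2ip, for RAP1, had the largest upward difference, at 8.74 FPKM in TetTKO and 7.21 in WT, while Acd, for TPP1 (its interval overlaps Rltpr), had 3.59 and 3.85. The 9 genes of the CST complex and of DNA end replication had a median log2 difference of -0.04. The largest downward was Stn1 (listed as Obfc1, with an interval that overlaps Gm19557), a CST subunit that ends telomerase action, at 10.02 FPKM in TetTKO and 14.15 in WT. Upward it was Ctc1 (listed as 1500010J02Rik), at 8.48 and 6.89 FPKM. Of 18 genes of end processing and recombination, 13 were higher and 5 lower, with a median log2 difference of 0.10. The nuclease gene Ercc4 had 2.34 FPKM in TetTKO and 1.16 in WT, a log2 difference of 0.63, and the helicase gene Pif1 had 6.97 and 10.74, a log2 difference of -0.56. Of 9 genes around H3.3 deposition 2 were higher and 7 lower, with a median of -0.05. The histone chaperone Asf1b had the largest downward difference, at 11.80 FPKM in TetTKO and 16.49 in WT, and Asf1a (its interval overlaps Mcm9) the largest upward one, at 29.26 and 28.13. The H3.3 genes themselves had 439.77 FPKM in TetTKO and 477.36 in WT for H3f3a, and 276.72 and 343.68 for H3f3b, and how reads shared with near-identical copies were counted is not given in the sources used here.

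**Figure D2:**
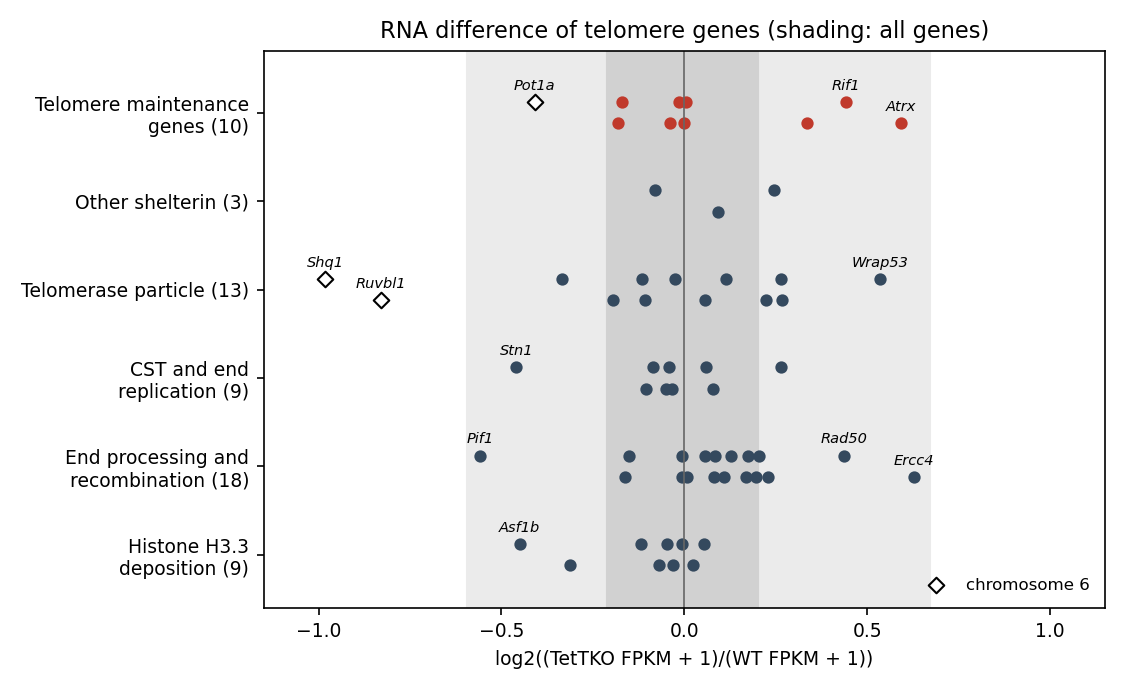
Log2 differences of FPKM + 1 between TetTKO and WT for the members and 5 lists of other telomere genes, 1 point per gene, with chromosome 6 genes as open diamonds. Dark shading runs from the 25th to the 75th percentile of all genes of at least 1 FPKM (-0.21 to 0.20) and light shading from the 5th to the 95th percentile (-0.60 to 0.67), and Shq1 and Ruvbl1 lie outside it.

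Methylation of the gene intervals differed in direction among the 10. In Pot1a, Atrx, Rtel1, Tert, Rif1 and Terf1 the interval was less methylated in TetTKO, as the genome was, while in Dkc1, Daxx and Terf2 it was more methylated. The Pot1a interval (mm9 chromosome 6, 25693735 to 25759226) averaged 70.2% in TetTKO and 77.7% in WT over 448 CpGs. That of Atrx (chromosome X, 102992956 to 103124711) averaged 62.1% and 67.96% over 413 CpGs. Rtel1 (chromosome 2, 181054429 to 181091321) had 61.1% and 65.6%, Tert (chromosome 13, 73764449 to 73786489) 65.9% and 69.4%, Rif1 (chromosome 2, 51928357 to 51977901) 52.6% and 55.7%, and Terf1 (chromosome 1, 15795739 to 15833510) 35.9% and 38.9%. These 6 differences ran from -7.42 to -3.08 percentage points, and the median over 19529 gene intervals was -2.80. Tinf2 (chromosome 14, 56297918 to 56300654) was level, at 28.9% in TetTKO and 29.3% in WT. The Terf1 difference was -7.11 points when reads were pooled, and that of Tert was -7.08 with CpGs of at least 10 reads in both libraries. Away from the ends, without the 3000 bp next to either, bodies were more methylated. Tert then had 75.4% in TetTKO and 82.9% in WT, Pot1a 73.9% and 82.0%, Rtel1 69.6% and 75.8%, and Atrx 68.3% and 74.5%.

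Dkc1 and Daxx went the other way. The Dkc1 interval (chromosome X, 72341193 to 72355115) averaged 24.2% in TetTKO and 13.3% in WT over 63 listed CpGs, 10.9 points higher. As a share of reads this was 25.9% in TetTKO (exact 95% interval 22.1 to 29.99) and 13.3% in WT (10.3 to 16.95). Daxx (chromosome 17, 34046390 to 34052535) averaged 24.3% and 15.4% over 155 CpGs, 8.92 points higher, with 22.5% of reads in TetTKO (20.3 to 24.7) and 12.3% in WT (10.7 to 14.1). Terf2 (chromosome 8, 109593302 to 109620445) averaged 53.6% and 49.5% over 360 CpGs, 4.10 points higher. Only Dkc1 passed 10 points upward, against 2.73% of all gene intervals, and 0 of 10 passed 10 points downward, against 4.76%. At least as high a difference as that of Dkc1 was found in 2.17% of all intervals, and for Daxx in 3.70%. Those shares are over intervals of every methylation level. Across the genome, 1 kb windows averaging 10 to 20% had a median difference of 8.50 points, with quartiles of 3.51 and 13.9. The means of TetTKO and WT for Dkc1 and Daxx fall in that range, and intervals of like level were not compared. With CpGs of at least 10 reads in both libraries the Daxx difference was 2.19 points and Dkc1 had too few CpGs. Over the 23 Dkc1 CpGs beyond 3000 bp from either end the levels were 37.1% in TetTKO and 14.5% in WT, 22.5 points higher. The X chromosome, which male cells carry once, was read 7.41 times per listed CpG in TetTKO and 6.72 times in WT. Dkc1 had 4.52 listed CpGs per kb, against a median of 9.46 over autosomal genes and 1.84 over genes of the X.

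**Figure D3:**
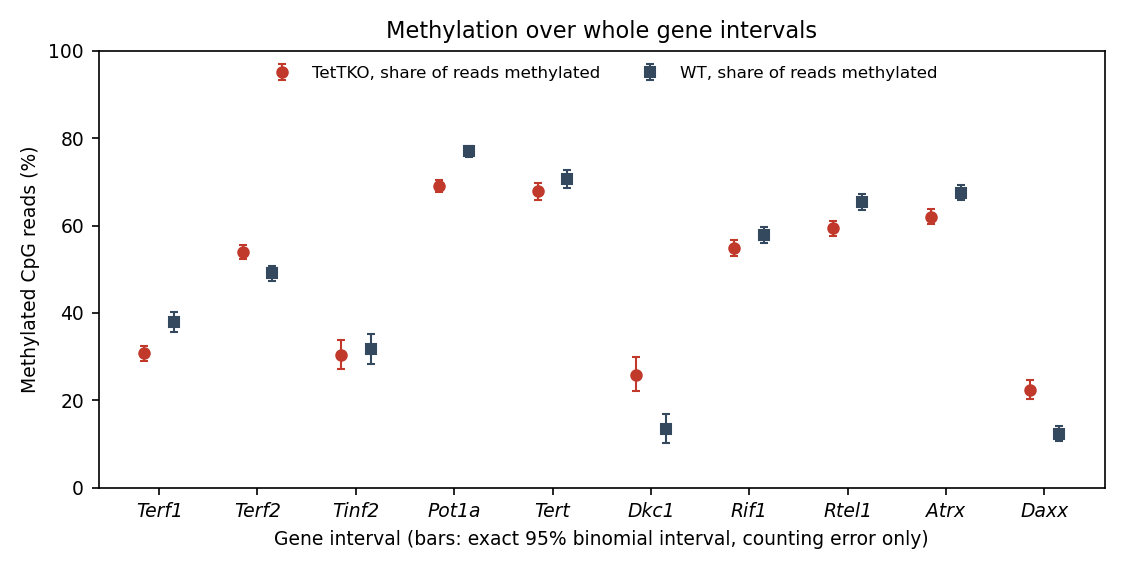
Share of CpG reads methylated over each gene interval, with TetTKO as circles and WT as squares and bars for exact 95% binomial intervals of the reads. Dkc1 and Daxx lie higher in TetTKO, at 25.9% against 13.3% and 22.5% against 12.3%, and Pot1a lies lower, at 69.1% against 77.0%.

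Of the 18 member ends with at least 5 CpGs, 8 were under 10% in both genotypes, against 26.3% of all gene ends. That share includes genes under 1 FPKM in both libraries, while all 10 members were above it. Ends of genes with like RNA level were not compared. An end covered 1000 bp of flank and the first 500 bp of the interval, and both ends were taken because the files give no strand. The less methylated of a gene's ends averaged under 12% in TetTKO for all 10 genes and under 11% in WT for all but Atrx. It had 0.196% in TetTKO and 3.47% in WT in Terf1, 0% and 0.476% in Rif1, 1.67% and 1.53% in Dkc1, 0.214% and 0.161% in Daxx, 2.38% and 2.32% in Terf2 and 2.59% and 1.82% in Tinf2. It had 5.63% and 3.24% in Rtel1, 10.8% and 6.36% in Tert, 11.5% and 10.3% in Pot1a and 11.8% and 18.98% in Atrx, the last over 15 CpGs. In the 6 genes matched to a promoter sequence, this was the end that holds the promoter. At this end of Daxx the interval of BC051226 also lies. RefSeq puts Atrx on the minus and Dkc1 on the plus strand, so their less methylated end was also the start side. The opposite ends of Atrx and Dkc1 held only 3 and 2 CpGs, under the minimum of 5, so this ordering rests on few CpGs. For Terf1 and Rif1 the side was not determined.

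**Figure D4:**
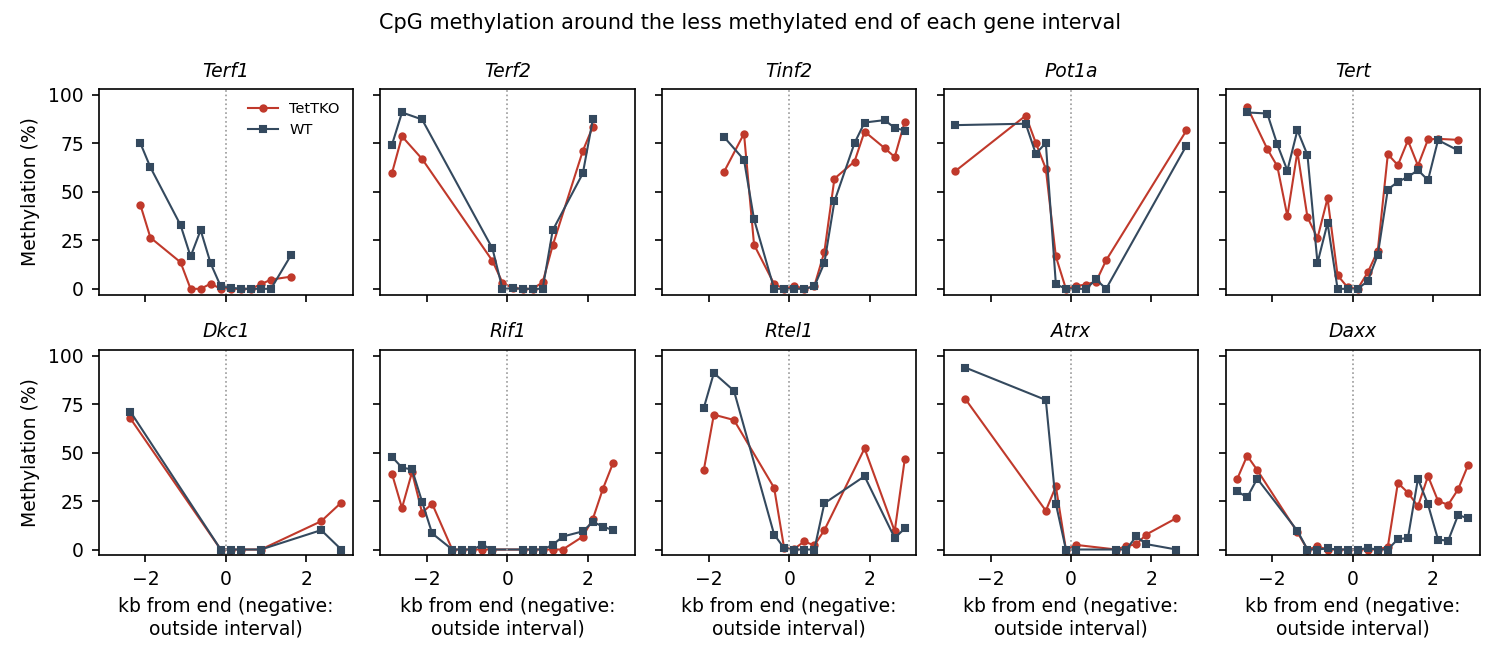
Mean CpG methylation in bins of 250 bp around the less methylated end of each gene interval, from 3 kb outside (negative) to 3 kb inside, in TetTKO (circles) and WT (squares), for bins with at least 2 CpGs, joined by lines across empty bins. The curves dip beside the end in both genotypes, and TetTKO lies lower outside Terf1 and higher inside Daxx.

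Of the 8 opposite ends with at least 5 CpGs, all but that of Daxx were methylated in both genotypes. Those of Tert, Tinf2, Pot1a, Rif1 and Rtel1 were lower in TetTKO. Rif1 had 74.1% in TetTKO and 87.5% in WT at its higher-coordinate end over 6 CpGs, Tert 68.3% and 82.2% at its higher-coordinate end over 10, and Tinf2 67.9% and 78.3% at its lower-coordinate end over 22, where Gmpr2 also lies. The read intervals of these ends overlapped between the genotypes, for Tinf2 from 62.4 to 74.9% in TetTKO and from 73.7 to 84.3% in WT. Terf2 went the other way, with 69.6% in TetTKO and 59.5% in WT at its lower-coordinate end over 25 CpGs, where the read intervals overlapped too. The higher-coordinate end of Daxx, where the interval of Zbtb22 begins, was low like its other end, at 6.09% in TetTKO and 1.58% in WT. Of the 18 member ends, 1 was at least 10 points higher, against 9.39% of all gene ends, and 3 were at least 10 points lower, against 16.4%. The Terf2 difference was 4.99 points when reads were pooled. With 500 bp of flank those of Tert and Tinf2 were -9.27 and -7.43 points, and with 2000 bp those of Tinf2 and Rif1 were -9.74 and -8.77, all short of 10.

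Windows of 10% methylation or more in and near the genes were higher in TetTKO about as often as such windows across the genome. In windows of 1 kb with at least 5 CpGs, in the interval or within 5 kb of it, 8 of 263 member windows were at least 20 points higher in TetTKO, against 2.40% of all 1223855 windows of the genome, and 11 were at least 20 points lower, against 6.41%. At least 30 points higher were 0, against 0.670% of all windows, and 2 were at least 30 points lower, against 0.638%. Of member windows whose 2 libraries averaged under 10%, 17 of 26 were higher in TetTKO, against 80.8% of all such windows. Of those averaging 10 to 50%, 22 of 31 were higher in TetTKO with a median of 8.68 points, and of all such windows 75.03% were higher with a median of 8.52. Of those averaging 50 to 80%, 38 of 144 were higher, with a median of -6.17 points, against 25.5% and -6.74 for all windows. Of those at 80% or more, 11 of 62 were higher, with a median of -6.42 points, against 19.1% and -6.45 for all windows.

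Daxx methylation was higher in TetTKO on the gene side of its promoter. Its promoter window (34046000 to 34046999) had 0% methylation in TetTKO and 0.121% in WT over 75 CpGs. The interval of BC051226 also reaches into this window. The next 3 windows into the gene had 16.03% in TetTKO and 4.19% in WT, then 27.1% and 9.73%, then 49.0% and 30.4%, or 11.8, 17.4 and 18.6 points higher. In the middle of the 3, read shares had exact 95% intervals of 23.4 to 33.0% in TetTKO and 6.70 to 13.1% in WT. The window from 34050000 was level, at 68.2% in both, and the next was lower in TetTKO, at 48.4% against 62.4%. Beyond the gene, the window at 34054000 to 34054999 inside Zbtb22 had 48.2% in TetTKO and 25.3% in WT over 35 CpGs, 22.9 points higher.

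Dkc1 was also unmethylated at its low end and higher in TetTKO further in, over fewer CpGs. Its window at 72341000 to 72341999 had 0% in both genotypes over 25 CpGs. The windows starting at 72344000 and 72345000 had 36.8% in TetTKO and 11.8% in WT, and 45.2% and 16.4%, the second being the largest upward difference of all member windows at 28.8 points over 5 CpGs, with read intervals of 30.4 to 61.2% and 6.76 to 34.5% that overlap. The window at 72349000 to 72349999 had 20.4% in TetTKO and 0% in WT over 6 CpGs, where 0 of 32 WT reads were methylated and the read intervals (10.2 to 34.3% and 0 to 10.9%) overlap. The remaining windows of 20 points or more upward were 1 each in Terf1, Terf2, Rif1 and Atrx. In Terf2 it was the window at 109593000 to 109593999, at the methylated end of the gene, with 70.0% in TetTKO and 45.3% in WT over 19 CpGs.

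Terf1 and Pot1a held the 2 windows that were at least 30 points lower in TetTKO. The Terf1 window, at 15793000 to 15793999 and 1740 bp outside its unmethylated end, had 34.8% in TetTKO and 68.9% in WT over 6 CpGs. The window beside it, nearer the gene, had 9.03% in TetTKO and 33.0% in WT over 12 CpGs. At this end of Terf1 coverage was uneven, with 17.8 reads per CpG in TetTKO and 10.6 in WT, and its part in the difference was not tested. In Pot1a the window at 25706000 to 25706999, within the gene, had 68.3% in TetTKO and 98.3% in WT over 5 CpGs. The 3 neighbouring Pot1a windows from 25699000 to 25701999 were also at least 20 points lower, at 59.3% in TetTKO and 85.5% in WT, 60.8% and 90.1%, and 65.1% and 86.3%. Within its gene Terf1 had 1 more such window, at 15809000 to 15809999, with 54.3% in TetTKO and 74.6% in WT over 6 CpGs. Rtel1 held 3 such windows and Atrx 1. Whether any window lies in an exon or intron was not determined, since no annotation of the mm9 build was used here.

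**Figure D5:**
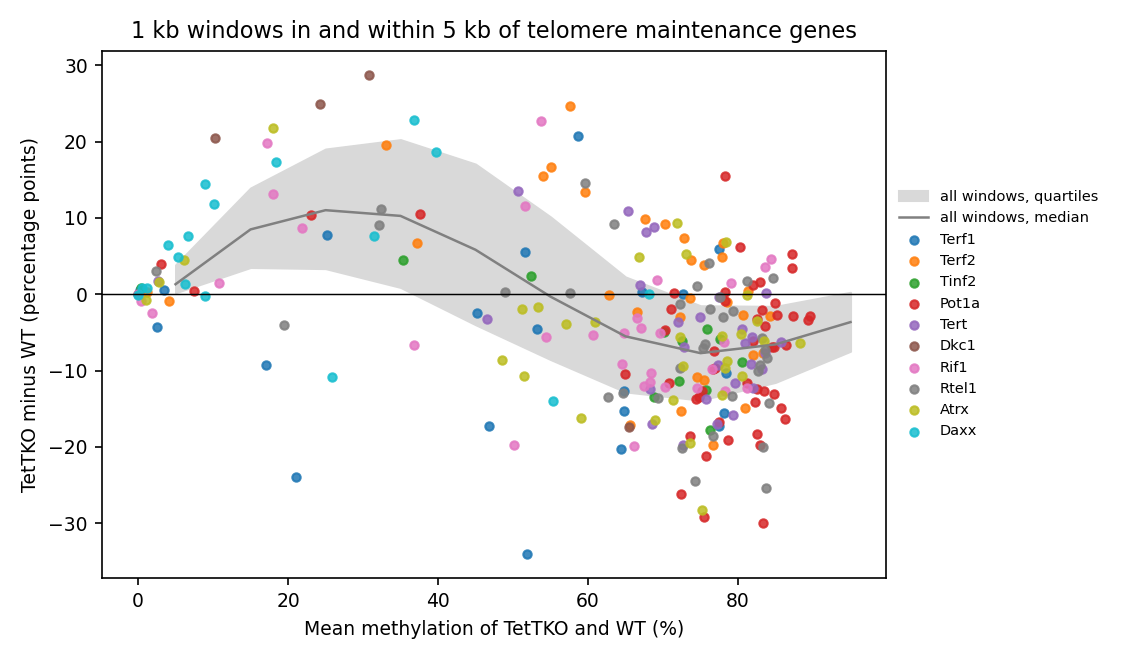
Difference in methylation between TetTKO and WT, in percentage points, against the mean of both, for 263 windows of 1 kb in or near the 10 genes, coloured by gene. The grey line and band give the median and quartiles of all windows of the genome in steps of 10%, and the 3 Dkc1 windows with 20.4 to 28.8 points lie above the band while a Terf1 window at -34.0 lies below it.

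Set side by side, Atrx, Rif1 and Terf1, the 3 genes with the largest upward RNA differences, had interval methylation differences of -5.82, -3.12 and -3.08 points. The median over all gene intervals was -2.80 points. Pot1a had both the largest downward RNA difference, a log2 of -0.41, and the largest downward methylation difference, -7.42 points. Dkc1 and Daxx, with the largest upward methylation differences at 10.9 and 8.92 points, had RNA log2 differences of 0.00 and -0.04. For the remaining genes the RNA log2 and methylation differences were -0.18 and 4.10 points in Terf2 and -0.17 and -4.55 in Rtel1. In Tinf2 they were -0.01 and -0.43, and in Tert 0.005 and -3.42. No correlation was computed over so few genes, which share the same libraries.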

How the data were processed

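RNA-seq and WGBS were each done on 1 TetTKO and 1 WT library, and samples were grouped by title. Per the labels' protocols, ribosomal RNA was removed, libraries kept the strand and reads were single, of 50 bp, and DNA was sheared to 350 bp, bisulfite converted and read as pairs of 110 bp. The submitters' processing notes name TopHat2 2.0.2, Cufflinks 2.0.2, Bismark 0.7.9, Bowtie, Trim Galore, SAMtools and the mm9 build. The authors deposited FPKM per gene, rounded to 2 decimals, so RNA depth is unknown. The deposited methylation files give per CpG the fraction methylated and the counts of methylated and all reads, with at least 5 reads in each library. Summed over the listed CpGs of the autosomes and X, these counts were 150076506 in TetTKO and 132749634 in WT. A read that spans several CpGs enters once per CpG, so these sums are not numbers of sequenced reads.

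Rows of 1 symbol were summed. RNA differences used a pseudocount of 1 FPKM, which understates changes of low genes, and genes of at least 1 FPKM in either library. No test was possible with 1 library per genotype, and 2 libraries give no pattern to compare between genes. Methylation was averaged over CpGs; intervals needed 20 CpGs, ends and windows 5. Interval starts, counted from 0 in the files, are given from 1. Older symbols were matched through RefSeq synonyms. All members were named, and other genes if past 1.5-fold at 5 FPKM or the largest each way in their list; windows if past 30 points or the largest gain. Other windows, Terc, Pot1b, H3f3a and H3f3b were chosen after their values were seen, as were the comparison with genes of like level and the bodies without their ends. The members and lists were chosen with earlier results of these data known. The calculations, in Python 3.11.15 with pandas 2.3.3 and SciPy 1.17.1, were checked on simulated data.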

Additional observations from a re-analysis of the deposited data

How the results depend on the processing

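No paired analysis was possible because each genotype had 1 library per assay. The Atrx log2 difference was 0.617 with a pseudocount of 0.1 FPKM and 0.507 with 5 FPKM. With median ratio and upper quartile scaling it was 0.617 and 0.638. These values give its size only, since a pseudocount cannot reverse a direction and both scaling factors were small. Atrx has a single row, so taking the highest row per symbol left it as it was. With a pseudocount of 5 FPKM the members at least 1.5-fold higher were 0 and the other telomere genes 0, against 1.87% of all genes. Requiring 5 FPKM gave 0 other telomere genes at least 1.5-fold higher, against 4.71% of all genes so filtered. The median was then 0.247 for the other shelterin genes, of which 1 remained measured. Without chromosome 6 the other telomere genes 1.5-fold lower were 0 at the pseudocount of 1 FPKM. With 0.1 FPKM and all chromosomes they were 3, against 7.63% of all genes. Member intervals at least 10 points higher numbered 2 with pooled reads, 2 when centred on all gene intervals and 0 with a coverage of at least 10, which left 8 intervals. Member ends at least 10 points higher were 0 with windows of 2000 bp outside, with pooled reads and with a coverage of at least 10. Ends at least 10 points lower were 1 with 500 bp outside and 1 with a coverage of at least 10, which left 10 ends. Windows at least 20 points higher were 3 with at least 10 CpGs and 4 with a coverage of at least 10, and those at least 20 points lower were 3 and 1, or 17 when windows were shifted by 500 bp. Windows at least 30 points higher were 1 when shifted and 2 with a coverage of at least 10. Windows at least 30 points lower were 0 with at least 10 CpGs and 0 with a coverage of at least 10. These restrictions left 93 and 54 of 263 windows. For the changed interval, end and window settings the shares over all features were not computed. Of the single-gene values 165 stayed within their tolerance (0.1 on the log2 scale, or counting error for methylation) and 23, all of methylation, did not. Many RNA settings could not move a single gene past its tolerance. Each member has 1 row, the FPKM filters leave single values unchanged, and the scaling factors were -0.024 and -0.046 on the log2 scale. These counts therefore do not compare how stable RNA and methylation values are. The low coverage limits the X-linked genes most.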
